A study of Mus musculus with 8 samples.

Results

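Retinoid signalling genes were followed through 2 sorted cell populations of mouse skin. The 9 members were Crabp1, Crabp2, Rdh10, Dhrs9, Aldh1a1, Aldh1a3, Cyp26b1, Rara and Rarg, taken by gene symbol from a table of 24421 genes, and all 9 were found. They were chosen for the values they show in these same 8 libraries, so their levels and differences are given as a description, with no p-value. The 4 mice were C57BL/6J animals carrying the ROSA mTmG reporter and a Cre transgene, Tyr:CreERT2, so the controls carried both as well. In this reporter a cell makes tdTomato until Cre acts and EGFP afterwards. CreERT2 needs tamoxifen, and the tyrosinase sequence that drives it is active in the melanocyte lineage, so the EGFP+ population is as complete and as pure as that recombination and the sort allowed. All mice received tamoxifen daily for 10 days from postnatal day 21 and were depilated on day 50. Mice 3 and 4 were given UVB at 150 mJ/cm2 for 3 days, mice 1 and 2 were mock treated, and back skin was dissociated and sorted on day 54. Each mouse gave 1 library of EGFP+ cells (melanocytes) and 1 of tdTomato+ cells (other skin cells), which made 4 groups of 2.

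Vitamin A travels in blood and tissue as retinol and is stored as retinyl esters. Cells oxidise retinol to retinal and then, irreversibly, to retinoic acid, which small cytosolic binding proteins carry either to nuclear receptors or to CYP26 enzymes that degrade it. The receptors RARα, RARβ and RARγ bind DNA as partners of retinoid X receptors and switch target genes, among them Rarb itself. In skin this pathway is known for its control of keratinocyte differentiation and of the hair cycle.

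The libraries held 11186363 to 16711981 reads and 11186 to 17076 detected genes. The lowest number of genes was that of UV EGFP replicate 2, at 13288698 reads. UV EGFP replicate 1 had 14503 genes, and no UV EGFP replicate 2 had 15867 at 13545505 reads. Crabp1, Dhrs9, Aldh1a1, Aldh1a3, Cyp26b1 and Rxrg had 0 reads in UV EGFP replicate 2. The part of its fewer detected genes in these zeros was not tested. Values are normalized reads, that is, the read count of a gene over the library's size factor. A gene with 0 reads in a library could still have been present at up to 3 reads, or 2.50 to 4.28 normalized reads depending on the library, and this limit covers counting error only. All 8 melanocyte markers were found, and they summed to between 523784 and 615877 in EGFP+ libraries. In tdTomato+ libraries the same sum was 2616 to 5571 without UV and 23227 to 44454 with UV. The 6 basal keratinocyte markers summed to 701 to 1013 in EGFP+ and 207351 to 275716 in tdTomato+ libraries. Mouse 1 had 477 and 1103 reads of Xist, against a maximum of 4 in any library of mice 2 to 4, and reads of Y-linked genes ran the opposite way, so a mouse of the other sex stood in the unirradiated arm only. In bulk samples, fewer cells of a type and less RNA per cell cannot be told apart.

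Promoter sequence from RefSeq was matched for 6 of the 9 members, over 11 start sites. Of the motifs searched, 3 were pairs of receptor half-sites on either strand, with AGGTCA as the consensus half-site, AGTTCA as a first variant, GGGTCA as another and GGTTCA as the last, repeated in 1 direction with 1, 2 or 5 bases between them. Such pairs occur in 0.164%, 0.174% and 0.0883% of the 32851 mouse promoters in the same 250-base window. No window of a member held any of them. The window of the receptor gene Rarb held the pair with 5 bases between, and it is shown because Rarb is the textbook target of its own receptor family and was called higher in EGFP+ cells. It lies at chr14:16575507-16575535 on the minus strand of GRCm38.p6, within 59 bases of the RefSeq start site, in a stretch that GENCODE annotates as exon of other Rarb transcripts. Capitals mark the pair of half-sites and the bases between them.
Rarb: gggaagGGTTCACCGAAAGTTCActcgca
The AP-1 motif TGANTCA (N being C or G), present in 4.46% of promoters, was found before a RefSeq start site of 2 members, Dhrs9 (chr2:69380438-69380456, plus strand) and Aldh1a1 (chr19:20492520-20492538, plus strand). These are shown because both genes were close to absent from EGFP+ cells, and capitals mark the motif. GENCODE starts the Dhrs9 gene at 69380445, inside the motif, so nearly all of that match lies in annotated exon. Aldh1a1 had 2 RefSeq windows, and that of its other start site (chr19:20601718-20601967) held none of the motifs searched.
Dhrs9: taggtgTGACTCActgaga
Aldh1a1: gtcatcTGACTCAgtgggg
Crabp1 is shown as the member with the largest difference between the populations over all mice on the log2(value + 1) scale. Its 250 bases before the start site, chr9:54764498-54764747 on the plus strand, held the GC box GGGCGG (either strand, in capitals) 5 times, a motif found in 32.7% of promoters, and neither the TATAAA box (12.4% of promoters) nor the melanocyte M-box TCATGTG (3.25%) nor its core CATGTG (12.2%).
Crabp1: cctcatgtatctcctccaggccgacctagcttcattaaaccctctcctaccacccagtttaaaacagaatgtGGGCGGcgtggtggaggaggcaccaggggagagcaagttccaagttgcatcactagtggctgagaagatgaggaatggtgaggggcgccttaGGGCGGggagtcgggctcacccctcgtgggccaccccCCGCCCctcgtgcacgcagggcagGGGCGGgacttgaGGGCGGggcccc
A match is a run of letters and not a measured site, and no match says only that these letters were not in this window.

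**Figure D1:**
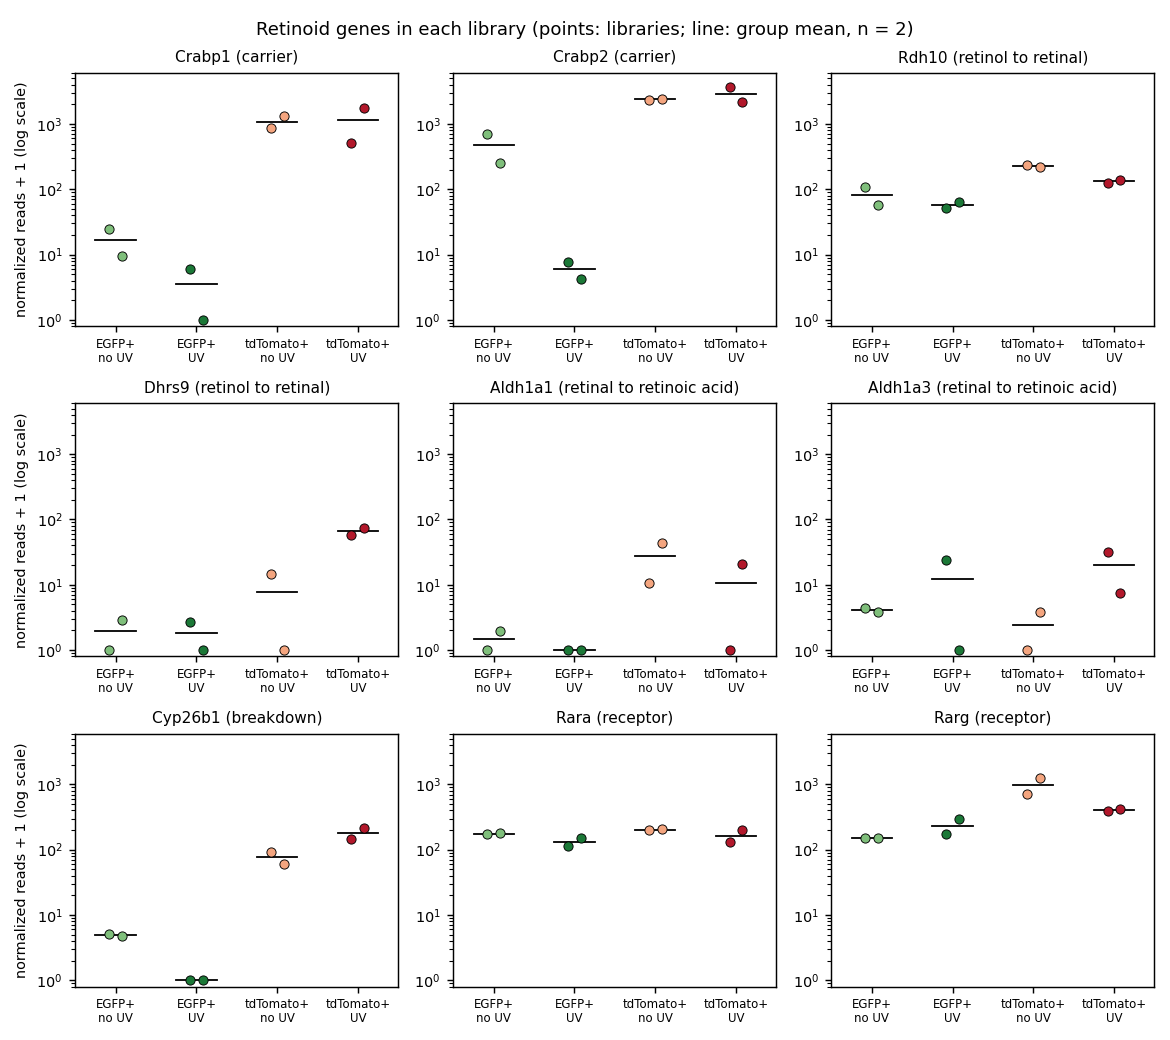
Normalized reads plus 1 on a log axis for the 9 retinoid genes, with 1 point per library, a line at the mean of 2 libraries, and the groups EGFP+ without and with UV and tdTomato+ without and with UV along the x axis. Crabp2 in EGFP+ cells goes from 693 and 248 to 6.71 and 3.23, while Rara stays between 114 and 204 in every library.

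Both carriers were lower in EGFP+ than in tdTomato+ cells of every mouse. Crabp1 (chr9:54764748-54773110, plus strand) encodes a cytosolic retinoic acid binding protein known in skin from dermal papilla and fibroblasts. It had 23.3 and 8.56 normalized reads in the EGFP+ libraries of mice 1 and 2 and 5.03 and 0 in those of mice 3 and 4. The tdTomato+ libraries of the same mice had 859, 1309, 502 and 1787. Every EGFP+ library therefore lay far below every tdTomato+ library, and the difference over all mice was -7.36 ± 0.72 (SE, n = 4 against 4) on the scale of log2(value + 1), which is used for all differences below. The tdTomato+ libraries given UV were at the lowest and the highest value of that population, so the arms overlapped.

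Crabp2 (chr3:87948666-87953376, plus strand), the carrier that delivers retinoic acid to nuclear receptors, had a different pattern. In EGFP+ cells it had 693 and 248 normalized reads without UV, and 6.71 and 3.23 with UV. In tdTomato+ cells it had 2360.2 and 2405 without UV, and 3687 and 2169 with UV. The EGFP+ libraries given UV lay below those without UV with no overlap, whereas the tdTomato+ libraries of the 2 arms overlapped. As a share of the tdTomato+ level in the same mouse, EGFP+ cells held 29.4% and 10.3% in mice 1 and 2 and 0.182% and 0.149% in mice 3 and 4. The gap between the populations was -2.52 ± 0.54 without UV and -8.95 ± 0.54 with UV (SE, n = 2 against 2).

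The enzymes that form retinal had lower group means in EGFP+ cells, and Dhrs9 did so on few reads. Rdh10 (chr1:16105774-16133734, plus strand), a principal retinol dehydrogenase, had 106 and 56.1 normalized reads in EGFP+ libraries without UV and 51.2 and 63.6 with UV. In tdTomato+ libraries it had 231 and 221 without UV and 126 and 138 with UV. No EGFP+ library reached a tdTomato+ one, and the difference over all mice was -1.37 ± 0.38 (SE, n = 4 against 4), the smallest among the members whose 2 populations did not overlap. Dhrs9 (chr2:69380445-69404533, plus strand), a short-chain dehydrogenase that also acts on retinol, had 0 and 1.90 in EGFP+ libraries without UV and 1.68 and 0 with UV. In tdTomato+ libraries it had 13.7 and 0 without UV and 57.7 and 74.2 with UV. The populations thus overlapped without UV and stood apart with UV, where 2 reads in EGFP+ cells faced 143 in tdTomato+ cells, a ratio of 69.9 with an exact 95% counting interval of 19.0 to 582.

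The enzymes that make retinoic acid rested on few reads in every group. Aldh1a1 (chr19:20492715-20643465, plus strand), a retinaldehyde dehydrogenase, had 0, 0.951, 0 and 0 normalized reads in the EGFP+ libraries of mice 1 to 4. In the tdTomato+ libraries of the same mice it had 9.78, 42.8, 0 and 19.5. In all, 1 read in EGFP+ cells stood against 61 in tdTomato+ cells, a ratio of 68.5 (11.9 to 2751, exact 95% counting interval), but the tdTomato+ library of mouse 3 had none, so the populations overlapped. Aldh1a1 has a near-identical neighbour copy, Aldh1a7, and reads could have been split between them in counting. Aldh1a3 (chr7:66390890-66427517, minus strand), a second retinaldehyde dehydrogenase, had 3.33, 2.85, 22.7 and 0 in EGFP+ and 0, 2.85, 31.2 and 6.49 in tdTomato+ libraries. It overlapped between the populations, with a difference of -0.31 ± 1.13 (SE, n = 4 against 4), and both libraries of mouse 3 stood highest in their population.

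Cyp26b1 (chr6:84571414-84593908, minus strand), which inactivates retinoic acid, had few or no reads in EGFP+ libraries. EGFP+ libraries had 4.16 and 3.80 normalized reads without UV and 0 and 0 with UV. The tdTomato+ libraries had 91.9 and 59.9 without UV and 147 and 215 with UV. The arms did not overlap in either population, and the order ran opposite ways. With UV the gene was at least 127.7-fold lower in EGFP+ cells, taking 3 reads over the group as the limit that a count of 0 allows. Without UV the difference was -3.92 ± 0.97 (SE, n = 2 against 2).

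The 2 receptors of the set differed in pattern. Rara (chr11:98927818-98974942, plus strand), which encodes RARα, had 174, 178, 114 and 149 normalized reads in the EGFP+ libraries of mice 1 to 4 and 198, 204, 128 and 199 in tdTomato+ libraries. In every mouse the EGFP+ level was 74.6% to 88.9% of the tdTomato+ level, and the populations overlapped. The difference of -0.24 ± 0.31 (SE, n = 4 against 4) was within its error and turned to 0.09 under quantile normalization and 0.02 when values were rescaled without the 20 most abundant genes. Rarg (chr15:102234938-102257517, minus strand), which encodes RARγ, the main retinoic acid receptor of epidermis, had 149.7 and 152 in EGFP+ libraries without UV and 171 and 291 with UV. In tdTomato+ libraries it had 723 and 1249 without UV and 393 and 413 with UV. EGFP+ libraries lay below tdTomato+ libraries throughout, by -2.65 ± 0.39 without UV and -0.85 ± 0.39 with UV (SE, n = 2 against 2). With UV the EGFP+ libraries were the higher ones of their population and the tdTomato+ libraries the lower ones of theirs.

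**Figure D2:**
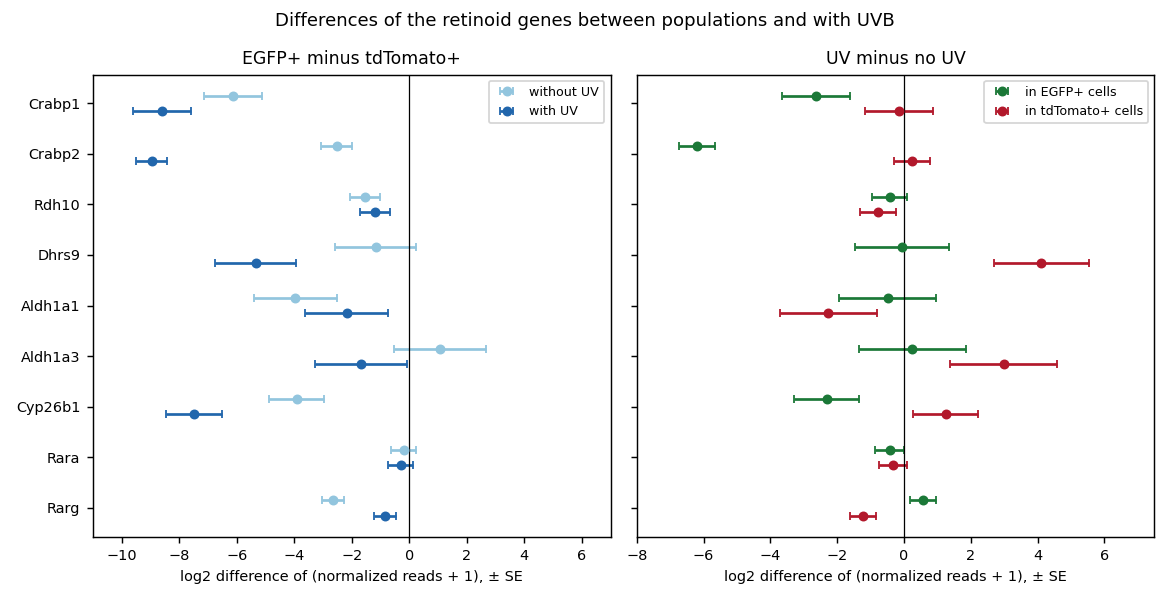
Log2 differences of (normalized reads + 1) with standard errors for the 9 genes, EGFP+ minus tdTomato+ on the left (without and with UV) and UV minus no UV on the right (in EGFP+ and in tdTomato+ cells). Crabp2 with UV sits at -8.95 on the left and at -6.19 in EGFP+ cells on the right, and the Rara points lie between -0.43 and -0.19.

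Read against all genes, 6 of the 9 members passed the threshold (limma across 18070 genes, Benjamini-Hochberg adjusted p under 0.05) over all mice, all lower in EGFP+ cells, where 28.9% of all genes passed. These were Crabp1, Crabp2, Rdh10, Dhrs9, Cyp26b1 and Rarg. Without UV it was 4 of 9 (Crabp1, Crabp2, Cyp26b1, Rarg) beside 19.2% of all genes, and with UV 4 of 9 (Crabp1, Crabp2, Dhrs9, Cyp26b1) beside 17.9%. The members were selected on these contrasts, so nothing is read from those counts. The median difference of the members over all mice was -3.07, beside -0.33 for all genes tested. Without UV the medians were -2.52 and -0.27, and with UV -2.18 (-2.77 if genes lacking reads in 1 group are set to their limit) and -0.27. Quantile normalization moved the median gene by 0.37 over all mice and the rescaling without abundant genes by 0.25. Over all mice Crabp1, Crabp2, Cyp26b1 and Rarg passed in each of 17 alternative settings, while Rdh10 did so in 9 and Dhrs9 in 6. Rdh10 was not called without no UV EGFP replicate 2 (-1.14), without any 1 of the 4 tdTomato+ libraries (-1.40 to -1.33), under quantile normalization (-0.87), with the rescaling (-1.11) or with edgeR (-1.29). Of the 8 fits that left out 1 library, Dhrs9 was called only when UV EGFP replicate 1 was the one omitted, or when it was no UV tdTomato replicate 2, and in the other 6 its values ran from -3.64 (without no UV EGFP replicate 2) to -2.29 (without no UV tdTomato replicate 1). With mouse as a replicate block 6 members were called over all mice, with Aldh1a1 (-3.07) in and Dhrs9 (-3.26) out, and 3 in each arm, where Cyp26b1 (-3.92) was lost without UV and Dhrs9 (-5.34) with UV. Without UV, Crabp1 lost its call without no UV EGFP replicate 2 (-5.45), no UV tdTomato replicate 1 (-6.43) or no UV tdTomato replicate 2 (-5.82). Crabp2 kept it without no UV EGFP replicate 1 or either UV EGFP library and lost it in the other 5 such fits, with values from -2.53 to -1.78, the latter without no UV EGFP replicate 2. Cyp26b1 lost it without no UV EGFP replicate 1 (-3.97) or 2 (-3.87). With UV, Dhrs9 kept it without UV EGFP replicate 1 or either no UV tdTomato library and lost it in the other 5, with values from -5.52 (without UV tdTomato replicate 1) to -4.63 (without UV EGFP replicate 2). With both libraries of mouse 1 left out, the remaining 6 libraries gave 5 called members in the comparison of all mice, 0 in the unirradiated arm and 2 in the UV arm.

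Between genes, levels were compared per kilobase of merged exons from GENCODE M21. In tdTomato+ cells without UV the mean was 1802 normalized reads per kb for Crabp2 and 1351 for Crabp1, then 231 for Rarg, 54.3 for Rdh10, 46.0 for Rara and 14.2 for Cyp26b1. Aldh1a1 (5.33), Dhrs9 (1.60) and Aldh1a3 (0.309) closed that order, and the libraries of Dhrs9 overlapped those of both others. Those of the first 6 did not overlap between neighbours. In EGFP+ cells without UV, Crabp2 led at 356 per kb, followed by Rara at 40.3 and Rarg at 35.4, whose libraries (39.8 to 40.7 and 35.1 to 35.7) did not overlap. With UV the order in EGFP+ cells began with Rarg at 54.2 and Rara at 30.1, then Rdh10 at 13.8, while Crabp2 stood at 3.76 and Crabp1 at 3.14 with overlapping libraries.

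UVB was the other comparison, within each population. Among EGFP+ cells 1 of the 9 members, Crabp2, passed the threshold (0.0166% of all genes did, which is 3 genes). The members were chosen for their values in these libraries, so nothing is read from that count. The Crabp2 difference was -6.19 ± 0.54 (SE, n = 2 against 2). Its value kept its sign in all 17 alternatives, from -6.92 to -4.48, but its call held in 6 of them. The call was lost without UV EGFP replicate 2 (-5.75), or with either unirradiated EGFP+ library left out (-5.45 for replicate 1 and -6.92 for replicate 2), and without any 1 of the 4 tdTomato+ libraries, which leave its value at -6.19. It was also lost with a pseudocount of 0.1 (-6.44) and under quantile normalization (-4.48), and it held with edgeR (-6.51) and DESeq2 (-6.53) on recovered reads. Crabp1 (-2.63 ± 1.02), Cyp26b1 (-2.32 ± 0.97) and Rara (-0.43 ± 0.43) were lower in both UV libraries than in either library without UV. Rarg (0.56 ± 0.39) was higher in both, and none of these 4 was called. The Rara difference was no larger than its standard error. With 2 libraries against 2, arms often stand apart by chance. The share of all genes that did so was not counted, so nothing is read from the separation of these 4.

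Markers of other cells were set beside the Crabp2 values. Hair matrix and shaft markers (6 genes) summed to 26.6 to 46.6 normalized reads in EGFP+ cells without UV and 0 to 3.36 with UV, where Krt25, Krt27, Krt71 and Krt35 were at 0. That was 9.76% and 4.56% of the tdTomato+ sum of the same mouse without UV and 1.22% and 0% with UV. Langerhans cell and macrophage markers (5 genes) summed to 392 to 605 without UV and 4.31 to 48.7 with UV in EGFP+ cells, which was 6.38% and 17.9% against 4.26% and 0.564% of the tdTomato+ sum. Most of that EGFP+ sum was Cd74 (304 and 91.3 against 40.3 and 2.16) and H2-Aa (299 and 300 against 6.71 and 1.08). Cd207, Csf1r and Adgre1 had at most 1.08, 1.68 and 0.832 in any EGFP+ library of either arm. Basal keratinocyte markers made up 0.332% to 0.489% in all 4 mice, and hair follicle markers (7 genes) 0.252% to 0.569%. Fibroblast and dermal papilla markers (8 genes) stood at 0.949% and 0.956% without UV and 0.121% and 2.08% with UV. Mural cell markers (4 genes) stood at 1.03% and 10.8% without UV and 0.146% and 0% with UV, on at most 41.8 normalized reads. Endothelial markers (4 genes) stood at 2.66% and 5.55% against 0.445% and 0%, on at most 2.52. For sebocyte markers (5 genes) the share was 51.7% and 16.2% without UV and 80.7% and 88.1% with UV, while their sum in EGFP+ cells was 1859 and 1770.3 without UV and 1919 and 1367 with UV and that in tdTomato+ cells 3597 and 10925 against 2380 and 1551. Scd1 (901 to 1261) and Fasn (466 to 628) made up most of the EGFP+ sum. In EGFP+ libraries Mc5r was at 0, Awat1 had at most 0.839 and Elovl3 0 to 174. For neutrophil markers (4 genes) the share was 4.69% and 17.8% against 78.3% and 93.1%. The sums were 343 and 334 against 938 and 452 in EGFP+ cells and 7331 and 1873 against 1198 and 485 in tdTomato+ cells. Most of that EGFP+ sum was S100a8 (331 and 319 against 906 and 447). S100a9 had 0 to 20.97 in EGFP+ libraries and 72.8 to 1738 in tdTomato+ libraries. Il1r2 had 0 to 1.66 and 81.6 to 2394, and Csf3r had 4.31 to 13.3 and 7.82 to 20.4. The part that other cells had in the Crabp2 values was not tested.

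**Figure D3:**
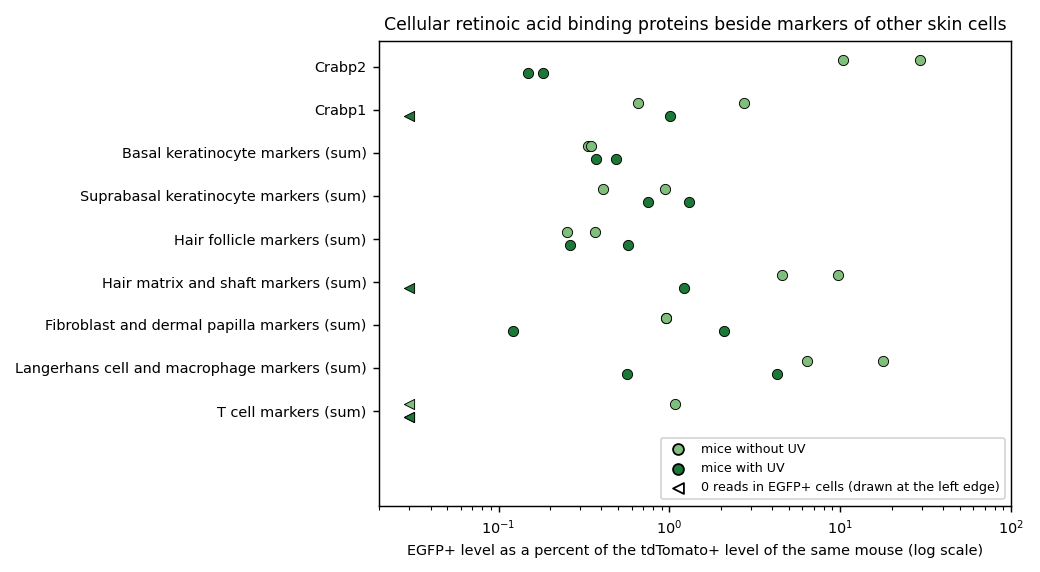
EGFP+ level as a percent of the tdTomato+ level of the same mouse on a log axis, for Crabp2, Crabp1 and the summed markers of 7 other cell classes, with light points for mice without UV and dark points for mice with UV. Crabp2 moves from 29.4% and 10.3% to 0.182% and 0.149%, while basal keratinocyte markers stay between 0.332% and 0.489%.

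In tdTomato+ cells none of the 9 members was called after UV (0.559% of all genes were). An unadjusted limma p under 0.05 was found for 2 of them, beside 2429 of all 18070 genes tested. Nothing is read from these counts, as the members were chosen on these values. Dhrs9 was higher in both UV libraries (4.12 ± 1.42), and it was called in the fit without no UV tdTomato replicate 1 (6.05). Aldh1a3 (2.98 ± 1.60) and Cyp26b1 (1.25 ± 0.97) were likewise above both libraries without UV. Rarg (-1.24 ± 0.39) and Rdh10 (-0.77 ± 0.53) were below both. Crabp1, Crabp2, Aldh1a1 and Rara overlapped between the arms. Here too, arms of so few libraries often stand apart by chance. The share of all genes that did so was not counted, so nothing is read from which members separated. Suprabasal keratinocyte markers in tdTomato+ cells summed to 49651 to 64901 without UV and 19862 to 35366 with UV, fibroblast and dermal papilla markers to 14721 to 17437 and 8292 to 11790, and T cell markers to 621 to 637 and 38.0 to 207. Within the suprabasal sum Krt1 went from 5874 and 10598 to 54.1 and 16.7, and Krt10 from 12359 and 18394 to 673 and 351. Krtdap and Sbsn overlapped between the arms, and Lor had at most 35.7. The part of these shifts in the members' values was not tested.

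The difference between the UV changes of the 2 populations was called for none of the 9 members by limma, where 0.00553% of all genes were called. An unadjusted limma p under 0.05 was found for 3 of them, beside 1814 of all 18070 genes tested. Again nothing is read from the counts of members. edgeR called 1 and DESeq2 called 1, Crabp2 in each. For Crabp2 the difference was -6.43 ± 0.76 (SE), and it was called in the fit without UV EGFP replicate 1 (-6.87). For Cyp26b1 it was -3.56 ± 1.37, for Dhrs9 -4.17 ± 2.00 and for Rarg 1.80 ± 0.56.

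The rest of the pathway was read from 6 lists that together held 63 further genes, 59 of them tested. Over all mice 3 were higher and 21 lower in EGFP+ cells, with a median of -0.87, and among all 18070 genes tested 1746 were higher and 3471 lower, with a median of -0.33. Without UV 2 were higher and 16 lower, beside 1206 and 2262 of all genes. With UV 1 was higher and 15 lower, beside 909 and 2331. Lower calls thus outnumbered higher ones among all genes as well. The pathway split with UV was 4 higher and 11 lower under quantile normalization, and 4 and 15 with the rescaling. With mouse as a replicate block 24 were called over all mice, 23 of them among those above, 14 without UV and 18 with UV.

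Of the 10 genes for uptake and other carriers, 6 were lower over all mice and none higher. Rbp2, a retinol binding protein, differed by -8.08 ± 0.75 (limma adjusted p = 0.000118, lower in 4 of 4 mice). It had 0.832, 0, 3.36 and 0 normalized reads in EGFP+ libraries of mice 1 to 4 and 292, 213, 1352 and 510.01 in tdTomato+ libraries. Rbp7, another such protein, was also lower, with 1 read in EGFP+ against 143 in tdTomato+ cells, a ratio of 161 (28.4 to 6390, exact 95% counting interval). Ttr, the plasma carrier transthyretin, was lower by -4.66 ± 0.86 (adjusted p = 0.00421), and it was not called without both libraries of mouse 1 (-5.01). Stra6, the retinol uptake receptor, had 53.8 and 28.5 in tdTomato+ cells without UV and 0 in both tdTomato+ libraries with UV. Its 3 reads in EGFP+ cells without UV stood against 75, a ratio of 32.7 (10.8 to 162, exact 95% counting interval). Its fitted difference over all mice (-2.18) was called in 6 of 17 alternatives, and neither edgeR nor DESeq2 called it.

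Storage and oxidation genes that moved did so in 1 direction. Of 8 genes for ester storage and provitamin cleavage, 2 were lower over all mice and none higher. Lrat, which esterifies retinol, differed by -4.19 ± 0.77 (limma adjusted p = 0.00417). It had 17.5, 5.70, 7.55 and 1.08 in EGFP+ and 49.9, 15.7, 582 and 487 in tdTomato+ libraries, so the gap was wide in the mice given UV and the populations overlapped. The other was Awat2, a wax and retinyl ester synthase (-4.10 ± 1.21, adjusted p = 0.0339), which overlapped too and kept its call when the EGFP+ library of mouse 1 or that of mouse 3 was omitted but lost it in the other 6 fits without 1 library (-4.62 to -2.87). Of 16 tested oxidoreductases for retinol and retinal, 7 were lower and none higher. Adh7, an alcohol dehydrogenase of stratified epithelia, differed by -8.37 ± 1.19 (adjusted p = 0.0011), Rdh12 by -6.97 ± 1.13 (adjusted p = 0.00214) and Sdr16c5 by -6.14 ± 0.66 (adjusted p = 0.00024). Dhrs3, which returns retinal to retinol, differed by -2.27 ± 0.31 (adjusted p = 0.000936), with 112 to 295 in EGFP+ and 786 to 847 in tdTomato+ libraries. Rdh12 was not called without no UV tdTomato replicate 2 (-6.84). Lrat (-4.15), Sdr16c5 (-6.01), Dhrs3 (-2.44), Rdh12 (-8.14) and Awat2 (-5.21) were not called without both libraries of mouse 1.

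Cyp26c1, a relative of Cyp26b1 that also degrades retinoic acid, went the other way. It had 15.8, 37.1, 5.87 and 56.0 in the EGFP+ libraries of mice 1 to 4 and 0.978, 0, 0 and 0 in tdTomato+ libraries, so 117 reads stood against 1, a ratio of 104 (18.3 to 4148, exact 95% counting interval). Its fitted difference was 4.24 ± 0.88 (limma adjusted p = 0.0072, higher in 4 of 4 mice), and it was not called without no UV tdTomato replicate 2 (3.99), without UV tdTomato replicate 1 (4.24) or without both libraries of mouse 1 (4.78). It was the only gene called higher among the 5 of synthesis and breakdown over all mice, and Aldh1a7 was called lower (1 read against 53, a ratio of 59.6 with an exact 95% counting interval of 10.2 to 2396, adjusted p = 0.0116), with the same doubt about its near-identical copy. Aldh1a7 was not called without no UV EGFP replicate 2 (-3.07) or UV tdTomato replicate 1 (-3.14).

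Receptors and their partners split. Rarb, which encodes RARβ, had 812, 1151, 388 and 925 normalized reads in EGFP+ libraries of mice 1 to 4 and 0.978, 19.98, 38.5 and 94.6 in tdTomato+ libraries. Its difference was 5.26 ± 0.74 (limma adjusted p = 0.00104, higher in 4 of 4 mice), and it was called in each of 17 alternatives. Melanocyte markers in the same tdTomato+ libraries summed to 2616 to 5571 without UV and 23227 to 44454 with UV, and their part in the Rarb values there was not tested. Rxrb, a retinoid X receptor, was higher by 1.02 ± 0.30 (adjusted p = 0.0321), and this call held without either UV EGFP library but was lost in the other 6 fits that left out 1 library, with values from 0.93 (without no UV EGFP replicate 2) to 1.10 (without no UV EGFP replicate 1), and without both libraries of mouse 1 (1.12). Rxra, the main retinoid X receptor of epidermis, was lower by -2.14 ± 0.28 (adjusted p = 0.000741), at 67.9 to 194 in EGFP+ and 396 to 715 in tdTomato+ libraries. The other 11 of the 14 receptors, partners and cofactors were not called over all mice. Rxrg had 268 and 216 in EGFP+ libraries without UV and 76.3 and 0 with UV, and its UV difference of -4.78 ± 1.84 was not called (adjusted p = 0.432).

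**Figure D4:**
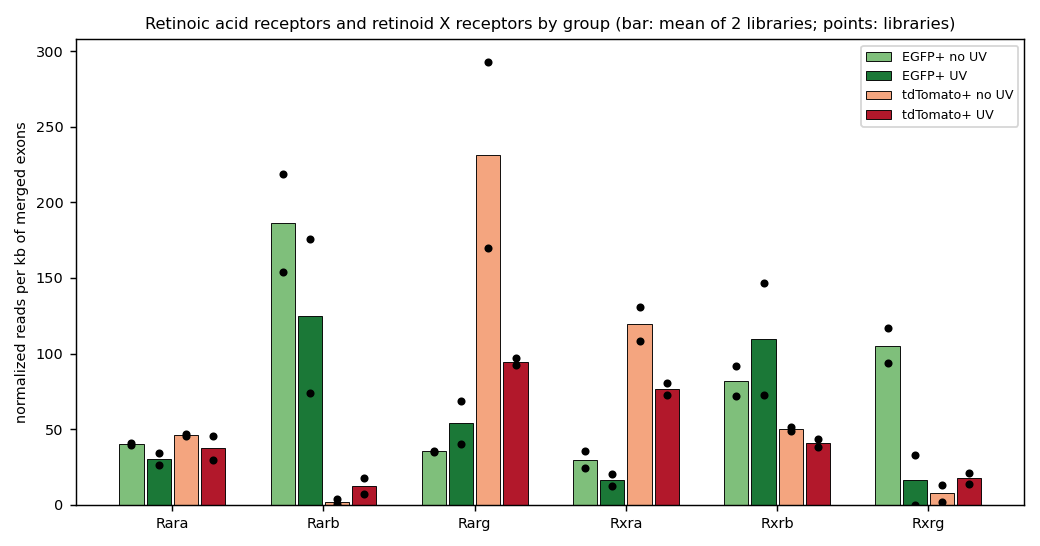
Normalized reads per kb of merged exons for 3 retinoic acid receptors and 3 retinoid X receptors, with bars for the mean of 2 libraries, points for libraries and 1 colour per group. Without UV, Rarb averages 186 in EGFP+ and 1.99 in tdTomato+ cells, while Rarg averages 35.4 and 231.

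Receptor levels were also set side by side per kilobase. Without UV, EGFP+ cells had 186 for Rarb, 40.3 for Rara and 35.4 for Rarg, and the Rarb libraries lay above both others. The tdTomato+ cells had 231 for Rarg, 46.0 for Rara and 1.99 for Rarb, with no overlap between the 3. Among retinoid X receptors, Rxrg (105) and Rxrb (81.9) stood above Rxra (29.8) in EGFP+ cells without UV, and Rxra (119.5) led in tdTomato+ cells, above Rxrb (50.03) and Rxrg (7.53). With UV, EGFP+ cells had 125 for Rarb, 54.2 for Rarg and 30.1 for Rara, and tdTomato+ cells had 94.6 for Rarg, 37.5 for Rara and 12.6 for Rarb, again with no overlap within either population. Rxrb (109.8) led the retinoid X receptors in EGFP+ cells with UV, where Rxrg (16.6, libraries at 0 and 33.2) and Rxra (16.3) overlapped. In tdTomato+ cells with UV the values were 76.6 for Rxra, 40.9 for Rxrb and 17.5 for Rxrg.

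Of 13 tested retinoic acid responsive genes, 8 were lower over all mice and 1, Rarb, was higher, with a median of -2.58. Hbegf, a growth factor of the EGF family, was lower by -4.87 ± 0.32 (limma adjusted p = 1.71e-05), at 34.4 to 348 in EGFP+ and 2914 to 4915 in tdTomato+ libraries. Dhrs3, described above, was also on the list.

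After UV, 2 of the 59 tested pathway genes were called in tdTomato+ cells, both higher, beside 63 higher and 38 lower of all genes. Fabp5, a fatty acid binding protein of keratinocytes that also binds retinoic acid, rose by 1.90 ± 0.29 (limma adjusted p = 0.0382), from 6111 and 10368 to 38331 and 23038. Its call was lost when any 1 of the 8 libraries was left out, with values from 1.52 to 2.28. In EGFP+ cells none of the 59 was called by limma, and 6 had an unadjusted p under 0.05, beside 1875 of all 18070 genes tested. There edgeR and DESeq2 each called 1, Hbegf (limma -2.30 ± 0.45, adjusted p = 0.152). Among those not called in tdTomato+ cells, Lrat differed by 4.19 ± 1.10 (adjusted p = 0.157) and Retsat, retinol saturase, by 1.58 ± 0.37 (adjusted p = 0.119). The difference between the UV changes was called by limma for none of the 59. Of these, 11 had an unadjusted limma p under 0.05, beside 1814 of all 18070 genes tested. It was called by edgeR for Hbegf and by DESeq2 for Hbegf and Lrat, and these names were taken after the values were seen.

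The genes most alike each member were taken as the 2 with the highest Pearson r of log2(value + 1) over the 8 libraries, among 12301 candidates. The 8 libraries share 4 mice and split into 2 populations, so r is a description. Crabp2 was most like Plcd3 (r = 0.997) and Mgat2 (0.995), and 88 genes exceeded 0.95. Crabp1 was most like Pex14 (0.996) and Hist1h1c (0.994), with 406 genes above 0.95, and Cyp26b1 was most like Gja1 (0.997) and F3 (0.997), with 324. Rarg was most like Bcl11a (0.989) and Zfpm1 (0.987), and Rdh10 was most like Il33 (0.990) and Tekt5 (0.990). Dhrs9 followed Reln (0.980) and Havcr2 (0.971), Aldh1a1 followed Kera (0.991) and Itga11 (0.988), and Aldh1a3 followed Trim65 (0.961) and Nfkbie (0.956). Rara had no gene above 0.95, the nearest being Rbm18 (0.932) and Pipox (0.931).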

How the data were processed

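The authors deposited a signal per gene and library: read counts over a library size factor, per the file headers. Multiplying back gave whole reads for 195368 of 195368 values (tolerance 0.01). The size factors ran from 0.701 to 1.20. The submitters' processing notes name FastQC, TopHat2 2.0.12, Cufflinks 2.2.1, DESeq2 1.14.1 and mm10 (GRCm38). No read counter or annotation version was found (not given in the sources used here), and the library kit named in the labels does not mark strand. The authors' table also gives log2 fold changes and p-values, deposited per the file headers, of which the log2 values are quoted at the end.

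The values being normalized, log2(value + 1) was fitted in limma 3.58.1 (R 4.3.3), with group means over 8 libraries together, a trended empirical Bayes prior and 4 residual degrees of freedom. Testing covered the 18070 genes whose mean reached 1 in any group, with Benjamini-Hochberg adjustment at 0.05. A p-value here measures the spread of 2 mice per group. The script of the fit was tested on simulated data. The members and lists were chosen with earlier results of these data known. From each of the 6 pathway lists the text drew, per comparison, on the called genes up to the 4 with the smallest p, or 2 where none was called. Other genes named only inside a count were added after their values were seen. The labels give a mouse number for every library, and each of the 4 mice has 1 EGFP+ and 1 tdTomato+ library. Across genes, deviations from the group mean correlated at 0.0873 (mice 1 and 2) and 0.0562 (mice 3 and 4) within a mouse. Alternatives were edgeR 4.0.16 with TMM scaling and DESeq2 1.42.0 on recovered reads, a pseudocount of 0.1, quantile normalization, totals rescaled after removing the top 20 genes, no filter or a filter of at least 5 in 2 libraries, only the libraries compared, mouse as a block, each library left out, and mouse 1 left out. Columns were matched to libraries by label. Of the genes that were counted, 1 is not reported here by name.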

Additional observations from a re-analysis of the deposited data

Results flagged for a closer look

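In 2 members and 5 pathway genes every UV library moved 1 way in EGFP+ cells and the opposite way in tdTomato+ cells. They were found among the members and the pathway genes drawn by smallest p, not among all genes. With so few libraries per arm, arms often stand apart by chance. The share of all genes with this pattern was not counted, so nothing is read from the number found. None of these differences between the UV changes was called by limma across all genes with all 8 libraries. On recovered reads edgeR and DESeq2 each called that of Hbegf and no other of these for which they gave an adjusted p. Cyp26b1 changed by -2.32 in EGFP+ and 1.25 in tdTomato+ cells, a difference of -3.56 (log2). For Rarg the values were 0.56, -1.24 and 1.80. For Hbegf they were -2.30, 0.65 and -2.95. For Rxrg, a retinoid X receptor, they were -4.78, 1.65 and -6.43. For Lipe, a hormone-sensitive lipase that can also act on retinyl esters, they were -2.19, 3.48 and -5.67. For Nr2f1, an orphan nuclear receptor, they were -0.92, 3.19 and -4.11, but it had 2 reads without UV and 0 with UV in EGFP+ cells, within the 3 reads that a count of 0 allows, and 0 and 18 reads in tdTomato+ cells. For Rdh14, a retinol dehydrogenase, they were 0.71, -0.37 and 1.09. The EGFP+ change of Cyp26b1 rested on 9 reads without UV and 0 with UV, at least 2.82-fold with 3 reads as the limit. That of Lipe rested on UV EGFP replicate 2, which had 0. Lipe had 17.5 and 19.0 normalized reads in EGFP+ libraries without UV and 16.8 in UV EGFP replicate 1.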

How the results depend on the processing

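The 15 member differences that were called kept their sign in 263 of 263 alternative values and their call in 201. Of 673 alternative values of the other member differences, 35 changed sign and 13 were called. The members were chosen for their values in these libraries, and the alternatives refit the same libraries. Nothing is therefore read from the member counts in this section. The 60 called pathway differences kept their sign in 1052 of 1052 alternatives and their call in 774. Leaving out 1 library at a time gave 15 (without UV tdTomato replicate 1) to 24 called pathway genes over all mice, 7 to 19 without UV, 4 to 22 with UV, and 0 to 2 for UV in EGFP+ cells, for UV in tdTomato+ cells and for the difference of the UV changes. For members it gave 4 to 6, 1 to 5, 3 to 4, and 0 to 1 for each of those last 3. Without both libraries of mouse 1 the called pathway genes were 15 (all mice), 5 (without UV), 7 (with UV), 3 (UV in EGFP+), 6 (UV in tdTomato+) and 5 (difference), and the members 0 without UV, 2 with UV and 0 for UV in EGFP+. A pseudocount of 0.1 gave 10 pathway genes without UV and 0 for UV in tdTomato+, and 0 members for UV in EGFP+. With only the libraries compared the pathway genes were 8 without UV, 6 with UV and 0 for UV in tdTomato+, and the members 2, 2 and, for UV in EGFP+, 0. Quantile normalization gave 0 members for UV in EGFP+. For UV in EGFP+, UV in tdTomato+ and the difference, DESeq2 gave 1, 5 and 2 pathway genes. edgeR gave 1 pathway gene for UV in EGFP+ and 1 for the difference, and each tool called 1 member for the difference. The cause of these changes was not tested. With mouse as a replicate block 24, 14 and 18 pathway genes were called (all mice, no UV, UV), and member calls changed only where stated. UV comparisons within a population have different mice in each arm and took no block. Members with 0 to 3 reads in a group are limited by depth.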

Other observations

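The authors' deposited table compares EGFP+ with tdTomato+ cells over all 8 libraries. Its log2 fold changes were -6.68 for Crabp1, -3.13 for Crabp2, -1.36 for Rdh10, -4.65 for Dhrs9, -4.97 for Aldh1a1, -0.42 for Aldh1a3, -5.74 for Cyp26b1, -0.24 for Rara and -1.84 for Rarg in the authors' deposited table. Crabp2 has no p-value in the authors' deposited table. Among markers of other cells, Schwann cell markers (4 genes) summed to 5209 to 9566 normalized reads in EGFP+ libraries and 393 to 1537 in tdTomato+ libraries. Sebocyte markers summed to 1367 to 1919 in EGFP+ and 1551 to 10925 in tdTomato+ libraries, with Mc5r at 0 in every EGFP+ library. Scd1 and Fasn made up most of that EGFP+ sum.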
